A study of Homo sapiens with 25 samples.

Results

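DND-41 is an established human T-cell acute lymphoblastic leukaemia line. The series lowered histidine, an amino acid that human cells must take up, in steps in the culture medium, and sequenced strand-specific RNA libraries. The comparison described here sets cells kept at 12.5% histidine against cells kept at 25% histidine, with 11 of the 25 libraries of the series. The members were chosen by the labels: 3 libraries at 12.5% on day 6 and 3 at 12.5% on day 9, against 2 libraries at 25% on day 6 (replicates 2 and 3) and 3 at 25% on day 9. All 11 come from the same line with no other agent or allele named in the labels. Whether replicates came from separate cultures is not stated in the labels, and the p-values therefore reflect library-to-library spread that may be technical. The days named in the series text differ from those on the samples, which are used here.

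A dividing cell copies its DNA in S phase and then switches on a separate set of genes for mitosis. Cyclin B and the kinase CDK1 start mitosis, kinetochores and motors move the chromosomes on the spindle, and the anaphase-promoting complex ends it by marking cyclin B and securin for destruction. Many of these genes are controlled by the DREAM complex and by MuvB with MYBL2 and FOXM1. In bulk RNA, fewer cells in a phase of the cycle and less of a transcript per cell cannot be told apart.

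Each value is a DESeq2-normalized count, which is scaled for depth and not for transcript length, and the original read depth is unknown. Library totals ran between 13574800 and 15405500 at 12.5% and between 15308300 and 15981800 at 25%. T-lineage markers were well detected, with 15 of 17 above 10 in some library, and their summed level was 63221 to 74003 at 12.5% and 70848 to 79301 at 25%. Among markers of other cells, the B cell sum was 9716 to 16935 at 12.5% and 18984 to 22795 at 25%, and nearly all of it was CD79A. Of 5 B cell markers tested 3 fell, CD79A, EBF1 and CD79B. EBF1 had 186 to 330 at 12.5% and 368 to 418 at 25%, and CD79B had 60.5 to 110 at 12.5% and 86.8 to 120 at 25%. PAX5 did not pass and was at or below 11.5. The fibroblast sum was 12868 to 16867 at 12.5% and 17095 to 21519 at 25%, most of it VIM, which T cells also express. PDGFRB had 774 to 880 at 12.5% and 1196 to 1490 at 25%, while the collagens COL1A1 and COL1A2 were at or below 6.37 and 0.909. Keratins 8, 18 and 19 summed to more than 100 in none of 6 libraries at 12.5% and in 2 of 5 at 25% (day 9, replicates 1 and 3). The 5.8S ribosomal RNA, which has no poly(A) tail, was 74.8 to 152 at 12.5% and 236 to 882 at 25%, so these groups did not overlap. The part of these shifts in the results below was not tested except where a value without them is given.

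Across both days, 3891 of 18799 genes tested passed an adjusted p of 0.05 (limma, Benjamini-Hochberg, day as a term), which is 20.7%. Of these 1549 were higher at 12.5% (8.24% of genes tested) and 2342 were lower (12.5%). The split between rises and falls depended on scaling, with 39.8% of calls rising as deposited, 53.5% after upper-quartile rescaling and 50.6% after quantile normalization. Most changes were small: 245 rises and 191 falls exceeded 1 on the log2 scale. Taken by day, from separate libraries, 3263 genes passed on day 6, 17.4% of those tested, and 1190 on day 9, 6.33%. Of the falls, 528 were called on both days, 26.4% of the day 6 falls and 66.9% of the day 9 falls. Of the rises, 228 were called on both days, 18.0% of the day 6 rises and 56.9% of the day 9 rises, and no gene was called in opposite directions.

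Genes of mitosis fell together. Of 133 mitotic genes in 7 lists by role, 117 fell and none rose, beside 12.5% of all genes that fell, and the median log2 difference was -0.61, against 0.03 over all genes. On day 6 alone 107 fell and 1 rose, beside 10.6% of all genes that fell and 6.73% that rose, with a median of -0.62. On day 9 alone 110 fell and none rose, beside 4.2% of all genes that fell and 2.13% that rose, also with a median of -0.62. For 108 of the 133 every 12.5% library lay below every 25% library, which held for 7.16% of all genes. Without the 2 libraries high in keratins 108 fell, beside 1663 of all 18799 genes tested.

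Genes that start and end mitosis were among the larger falls. PLK1, the polo-like kinase that drives entry into mitosis, had normalized counts of 1744, 2169 and 2628 at 12.5% on day 6, against 5948 and 5348 at 25%. On day 9 it had 2427, 1981 and 1835 at 12.5%, against 6038, 7349 and 7196 at 25%. The highest 12.5% library was therefore below the lowest 25% library on each day, and the log2 difference was -1.58 ± 0.11 (SE, limma adjusted p = 2.2e-06).

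CCNB1, cyclin B1, the partner of CDK1, had 235, 326 and 467 at 12.5% on day 6, against 692 and 959 at 25%. On day 9 its counts were 204, 232 and 306 at 12.5%, against 659, 899 and 1006 at 25%. The spread within groups was wider than for PLK1 but the groups did not overlap, and it fell by 1.57 ± 0.18 on the log2 scale (limma adjusted p = 6.22e-05). PTTG1, securin, which holds separase inactive until anaphase, had 780, 953 and 1252 at 12.5% on day 6, against 2444 and 2343 at 25%. Its day 9 counts were 936, 840 and 902 at 12.5%, against 2393, 2528 and 2511 at 25%. The 12.5% libraries of day 6 varied most, the groups did not overlap, and the log2 difference was -1.39 ± 0.10 (limma adjusted p = 2.2e-06). CDC20, an activator of the anaphase-promoting complex, had 1661, 2112 and 2376 at 12.5% on day 6, against 3797 and 3778 at 25%. On day 9 it had 2145, 1584 and 1664 at 12.5%, against 4356, 5100 and 4922 at 25%. It was lower in every 12.5% library, with a log2 difference of -1.19 ± 0.12 (limma adjusted p = 2.04e-05).

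**Figure D1:**
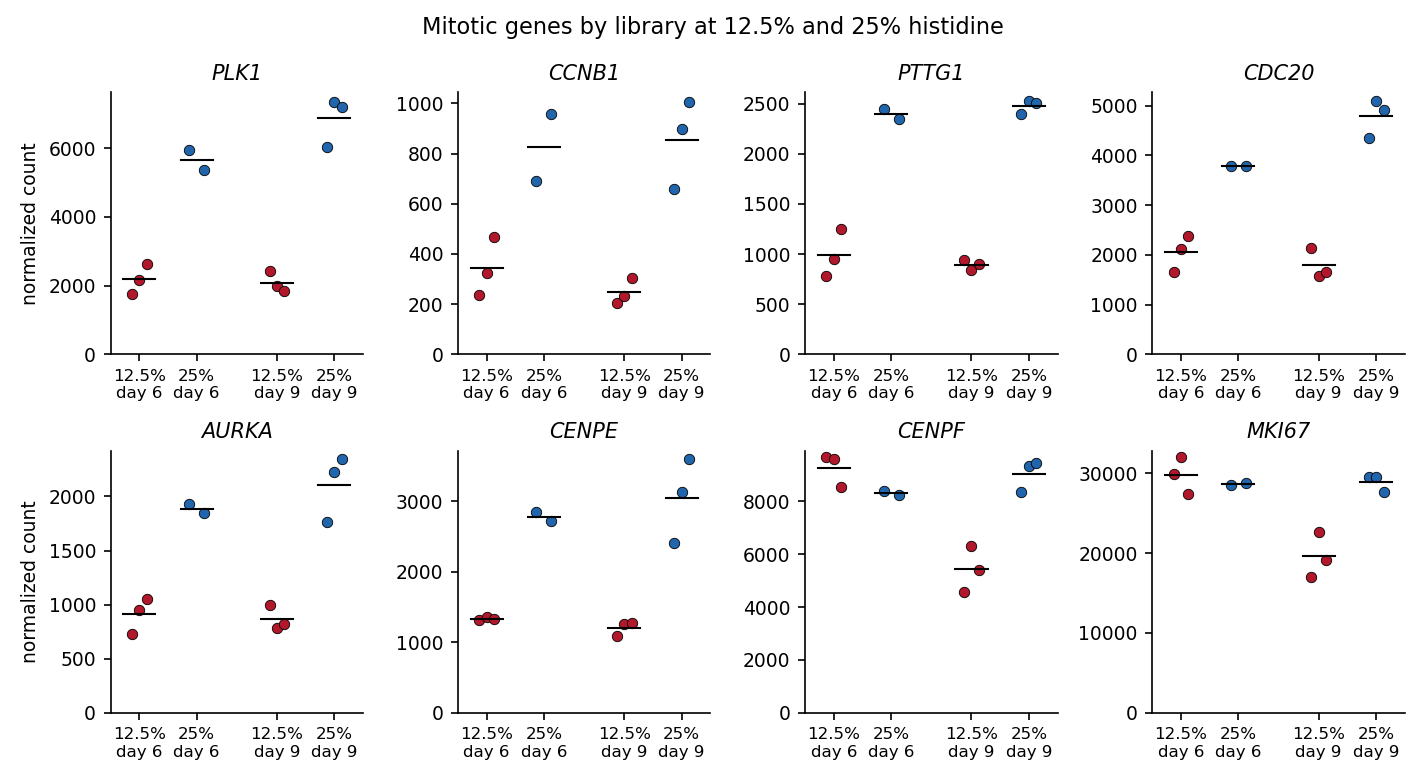
DESeq2-normalized counts (y axis, from 0) of 8 mitotic genes in each library of the 12.5% (red) and 25% (blue) groups on day 6 and day 9, with a bar at each group's mean. PLK1, CCNB1, PTTG1, CDC20, AURKA and CENPE were lower in every 12.5% library, while CENPF and MKI67 were lower in every 12.5% library on day 9 and not on day 6.

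The windows around the start sites of these 4 genes are shown because late cell cycle promoters are known to pair CHR elements, bound by MuvB, with CCAAT boxes, bound by NF-Y. Each holds 250 bases before the start and 50 after it, from RefSeq on GRCh38.p14. Capitals mark the CHR letters TTTGAA or TTTAAA, and the box CCAAT, on either strand. On the reverse strand they read TTCAAA and, for the box, ATTGG, and in PTTG1 2 boxes, on opposite strands, overlap. The windows are PLK1 at chr16:23678639-23678938, CCNB1 at chr5:69166900-69167199, PTTG1 at chr5:160421605-160421904 and CDC20 at chr1:43358731-43359030, all on the plus strand.
PLK1: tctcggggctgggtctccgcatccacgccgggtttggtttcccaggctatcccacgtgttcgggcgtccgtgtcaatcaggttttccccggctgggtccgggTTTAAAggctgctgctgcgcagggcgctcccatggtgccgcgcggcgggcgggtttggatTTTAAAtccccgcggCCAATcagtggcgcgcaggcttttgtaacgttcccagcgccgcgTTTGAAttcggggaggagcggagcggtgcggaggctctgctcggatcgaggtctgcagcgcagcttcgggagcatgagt
CCNB1: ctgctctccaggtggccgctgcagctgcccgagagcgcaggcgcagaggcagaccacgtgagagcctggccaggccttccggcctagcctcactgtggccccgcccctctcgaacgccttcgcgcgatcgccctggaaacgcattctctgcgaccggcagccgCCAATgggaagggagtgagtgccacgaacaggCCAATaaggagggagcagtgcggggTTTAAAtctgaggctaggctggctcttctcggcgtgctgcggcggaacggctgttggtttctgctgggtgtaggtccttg
PTTG1: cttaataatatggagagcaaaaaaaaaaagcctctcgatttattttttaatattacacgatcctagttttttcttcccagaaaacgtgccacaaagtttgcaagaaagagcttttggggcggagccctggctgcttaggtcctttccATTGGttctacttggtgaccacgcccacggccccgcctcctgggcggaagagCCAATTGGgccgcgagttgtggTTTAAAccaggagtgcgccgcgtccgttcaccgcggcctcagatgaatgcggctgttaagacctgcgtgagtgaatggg
CDC20: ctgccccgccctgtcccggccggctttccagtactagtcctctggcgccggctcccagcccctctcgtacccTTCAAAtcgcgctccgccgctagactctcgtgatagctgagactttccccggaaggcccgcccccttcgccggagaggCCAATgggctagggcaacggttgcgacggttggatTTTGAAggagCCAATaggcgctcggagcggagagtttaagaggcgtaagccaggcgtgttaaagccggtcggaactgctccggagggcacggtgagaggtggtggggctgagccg

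All 4 windows hold at least 1 of TTTGAA or TTTAAA and at least 1 CCAAT. Of 144 windows for the 110 mitotic genes with a RefSeq entry, 62.5% hold TTTGAA or TTTAAA, beside 24.0% of 35116 windows of the same length over all genes. CCAAT was in 64.6% of the mitotic windows and 34.6% of all, and both kinds were in 45.1% and 9.27%. Mitotic genes that were not called also held these letters often. TTTGAA or TTTAAA was in 50% of their 16 windows, beside 64.1% of 128 windows of mitotic genes that fell. For CCAAT the shares were 50% and 66.4%. Windows of the MCM and licensing genes, which also fell, held TTTGAA or TTTAAA in 7.14% of cases, and those of replication fork genes in 8.11%. Over all tested genes the share was 22.2% in those that fell, 15.3% in those that rose and 17.0% in those not called. A match of these letters is a description of the window and not a bound site.

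Among the 23 mitotic entry kinases, cyclins and regulators 21 fell, with a median log2 difference of -0.78. CDK1 fell by 0.90 ± 0.08, CCNB2 by 0.92 ± 0.10, CCNA2 by 0.88 ± 0.10 and the spindle pole kinase AURKA by 1.19 ± 0.11 (all log2, SE). CDC25C, the phosphatase that activates CDK1, had 205 to 288 at 12.5% and 477 to 594 at 25% over both days. The transcription factors that drive this programme moved less, with log2 differences of -0.53 ± 0.07 for FOXM1 and -0.54 ± 0.07 for MYBL2.

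Of 36 kinetochore and checkpoint genes 30 fell, with a median of -0.56. CENPE, the kinetochore motor, had 1316, 1354 and 1325 at 12.5% on day 6, against 2848 and 2717 at 25%, and 1086, 1255 and 1277 at 12.5% on day 9, against 2404, 3127 and 3597 at 25%. Its 12.5% libraries were close to each other on both days and all below the 25% libraries, and it fell by 1.20 ± 0.10 on the log2 scale. NDC80, which binds microtubules, fell by 0.85 ± 0.07, the centromeric histone CENPA by 1.04 ± 0.10 and the checkpoint kinase BUB1 by 0.47 ± 0.07. All 4 subunits of the chromosomal passenger complex fell, BIRC5 by 0.92, CDCA8 by 0.81, AURKB by 0.74 and INCENP by 0.60.

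Spindle motors and microtubule proteins fell in 27 of 28 cases, with a median of -0.64. The microtubule depolymerase KIF2C differed by -0.87 ± 0.06 and the spindle protein PSRC1 by -1.17 ± 0.09. Of 10 genes placed in a broad list for cytokinesis 9 fell, among them the centralspindlin subunit RACGAP1 at -0.67 ± 0.07. The list also holds PIMREG and FAM72A, whose place in it was a choice. PIMREG had 162 to 383 at 12.5% and 621 to 787 at 25%, a log2 difference of -1.54 ± 0.17. FAM72A also fell, by 1.42, but it has near-identical copies among which reads could be split. Of 13 genes of the anaphase-promoting complex and mitotic exit 10 fell. The falls included its activator CDC20, its ubiquitin carrier UBE2C (-1.15 ± 0.11), securin and separase (ESPL1, -0.78 ± 0.07), and among subunits of the complex itself CDC27 (-0.30) and ANAPC11 (-0.44). The subunits ANAPC1, ANAPC5 and CDC16 were at 0.16, 0.07 and 0.10 and did not pass. These 5 subunits were named after their values were seen. Of 19 genes of condensin and chromosome structure 16 fell, such as NCAPG by 0.80 ± 0.07 and the topoisomerase TOP2A by 0.50 ± 0.07.

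**Figure D2:**
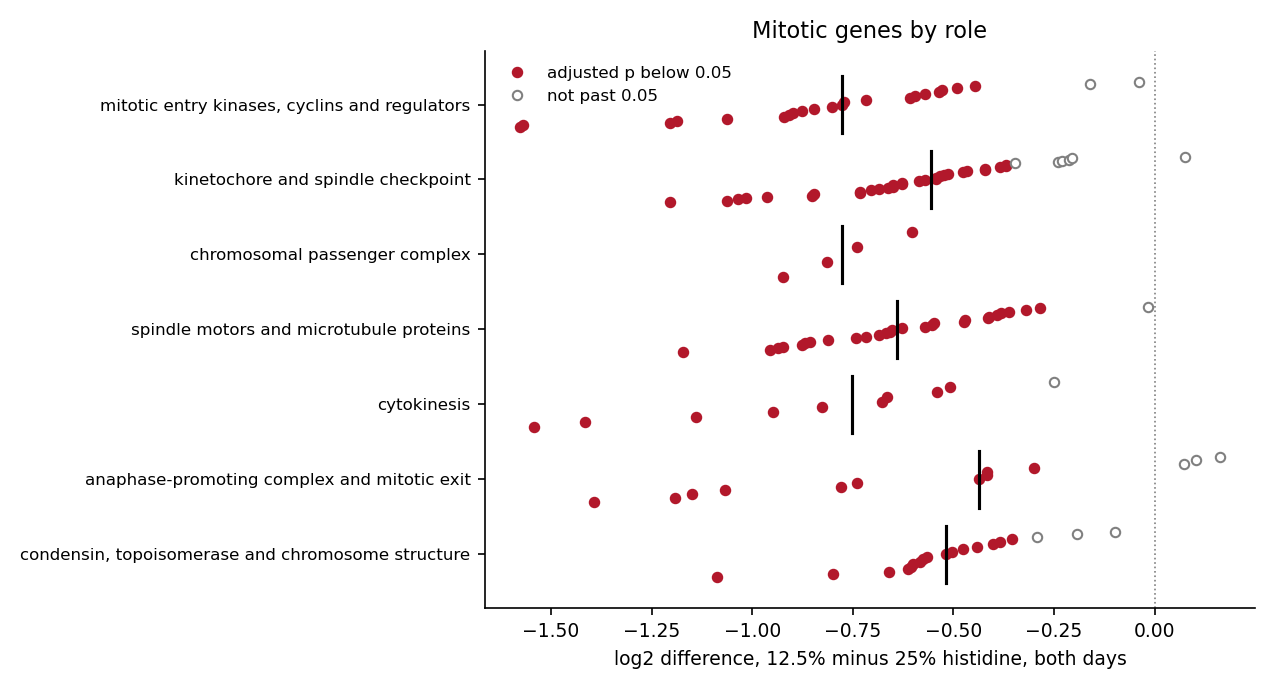
Log2 difference between 12.5% and 25% histidine over both days (x axis) for 133 mitotic genes in 7 lists by role (rows), with filled points past a limma adjusted p of 0.05, open points not past it, and a bar at each list's median. Medians lie between -0.78 and -0.44, and the open points lie between -0.35 and 0.16.

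The proliferation marker MKI67 and the kinetochore protein CENPF did not pass over both days. MKI67 had 29879, 32095 and 27390 at 12.5% on day 6, against 28487 and 28738 at 25%. On day 9 it had 16991, 22677 and 19148 at 12.5%, against 29550, 29480 and 27696 at 25%. The groups overlapped on day 6 and not on day 9, and the log2 differences were 0.06 on day 6 (limma adjusted p = 0.80) and -0.57 on day 9 (limma adjusted p = 0.0062). CENPF had 9667, 9599 and 8542 at 12.5% on day 6, against 8387 and 8256 at 25%, and 4574, 6308 and 5405 at 12.5% on day 9, against 8348, 9343 and 9435 at 25%. It was higher at 12.5% on day 6 and lower on day 9, but the difference between days did not pass (limma adjusted p = 0.08, and 0.20 for MKI67).

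Both have long transcripts, and on day 6 the difference followed transcript length across the whole table. Over genes with a mean of at least 50, the median log2 difference on day 6 was -0.27 for 457 genes of up to 1000 bases and 0.23 for 452 genes above 10000 bases, against -0.06 and -0.01 on day 9. Mitotic genes lay below all genes of like length in each of 7 length classes on both days. The shortest and the longest class hold only 3 mitotic genes each. Among 28 mitotic genes of 4000 to 6000 bases all fell over both days, with medians of -0.50 on day 6 and -0.61 on day 9, where all genes of that length had 0.00 and -0.02. Longer mitotic genes fell less often. Of 13 with 6000 to 10000 bases 6 fell, beside 167 of 1622 for all genes. Above 10000 bases 1 of 3 fell, beside 37 of 452. Their day 6 medians were -0.17 and 0.06. With a length trend removed from each library, 117 mitotic genes fell and 1 rose, and MKI67 (-0.39) and CENPF (-0.42) passed. Over all 17601 genes in that fit 1983 fell and 2201 rose.

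**Figure D3:**
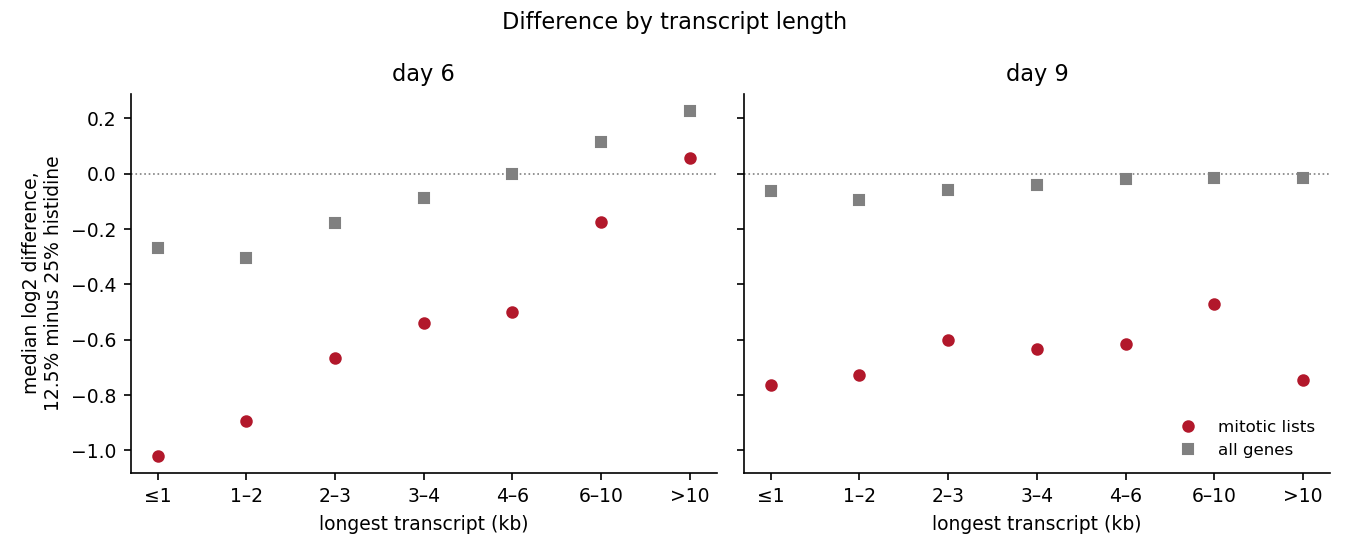
Median log2 difference between 12.5% and 25% histidine (y axis) by longest annotated transcript (x axis, in kb) on day 6 and day 9, for mitotic genes (red circles) and all genes with a mean of at least 50 (grey squares). All-gene medians climb with length on day 6, between -0.31 and 0.23, and stay between -0.09 and -0.01 on day 9, with mitotic genes lower in every class.

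Set beside the other histidine levels, mitotic transcripts were not highest at full histidine. One of the 3 libraries with no histidine is day 6 by its title and day 9 by its time label, and is placed by its title. Relative to 100% histidine of the same day, the median log2 level over the 133 genes on day 6 was -1.15 with no histidine, -0.24 at 12.5%, 0.35 at 25% and 0.07 at 50%. On day 9 it was -0.15 at 12.5%, 0.53 at 25% and 0.13 at 50%. The step between 12.5% and 25% thus spans the level at 100%, with most of it above that level. The 4 chromosomal passenger genes differed from this, at -0.13 at 25% and 0.04 at 50% on day 6, and at 0.21 at both levels on day 9. These values share the 100% libraries and are given side by side without a test. MCM and licensing genes stood at -0.50 at 12.5% and 0.15 at 25% on day 6, and at -0.38 at 12.5% and -0.01 at 25% on day 9.

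**Figure D4:**
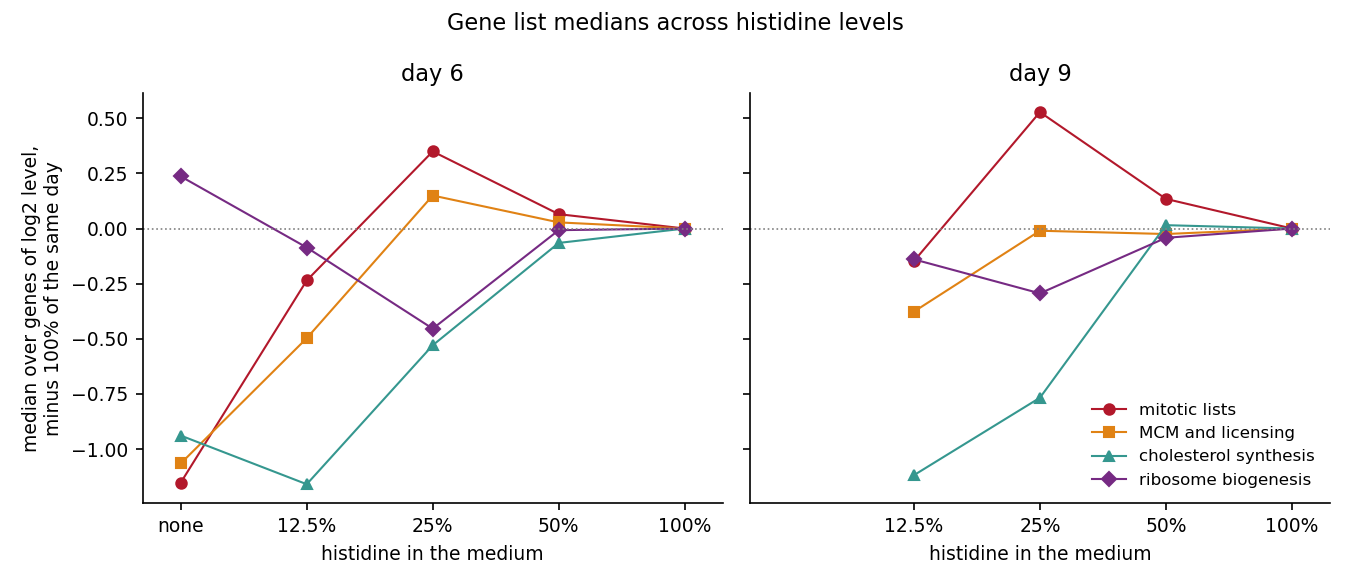
Median over the genes of 4 lists of the log2 level relative to 100% histidine of the same day (y axis) against histidine in the medium (x axis), on day 6 and day 9. The median over the mitotic lists together is highest at 25%, at 0.35 on day 6 and 0.53 on day 9, and cholesterol synthesis genes are already below 100% at 25%.

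Genes of DNA replication also fell, and more of them passed on day 6 than on day 9. Of 24 MCM helicase and licensing genes 19 fell over both days, 21 on day 6 and 5 on day 9, beside 12.5%, 10.6% and 4.2% of all genes, so that calls were fewer on day 9 across the whole table too. Of 34 replication fork genes 23 fell over both days, 24 on day 6 and 3 on day 9. Without either 25% library of day 6 the fork count over both days was 15. With 5.8S RNA as a covariate none of either list passed, but only 48 of 18799 genes tested did. The 5.8S RNA did not overlap between the histidine groups, so this fit tells it poorly apart from histidine. CDC45, part of the replicative helicase complex, had 1246, 1520 and 1652 at 12.5% on day 6, against 3180 and 3213 at 25%, and 1915, 1964 and 1991 at 12.5% on day 9, against 2913, 2793 and 2854 at 25%. Its groups did not overlap on either day, and the log2 difference was -1.13 on day 6 and -0.54 on day 9. TK1, thymidine kinase, fell by 1.25 ± 0.15 and TYMS, thymidylate synthase, by 0.56 ± 0.12, while MCM2 fell by 0.38 ± 0.08. No gene of these lists passed the test of the difference between days.

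Regulators of the G1/S step moved both ways, with 10 of 20 falling and 2 rising. Over all genes 12.5% fell and 8.24% rose, so the 2 rises are close to the share of all genes. E2F2 fell by 0.67 ± 0.07, cyclin E1 (CCNE1) by 0.91 ± 0.13 and cyclin D3 (CCND3) by 0.41 ± 0.08, though CCND3 missed the threshold after quantile normalization (-0.19). Cyclin D2 (CCND2) had 161, 83.2 and 67.7 at 12.5% on day 6 and was listed at 0 in both 25% libraries, and on day 9 it had 78.0, 24.8 and 9.16 at 12.5%, against 0, 0 and 34.6 at 25%. It passed over both days (limma adjusted p = 0.00321), at levels far below those of CCND3. Genes named as inhibitors of cyclin-dependent kinases fell too, in 5 of 7 cases. CDKN1B, p27, fell by 0.60 ± 0.08, CDKN1A, p21, by 0.51 ± 0.11 and CDKN3, which encodes a phosphatase, by 1.08 ± 0.12.

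Replication-dependent histone genes, whose mature messages lack a poly(A) tail, had a median log2 difference of -1.31, with 39 of 52 falling and 4 rising. Over all genes 12.5% fell and 8.24% rose. H4C3 had 118, 162 and 182 at 12.5% on day 6, against 6285 and 3853 at 25%, and 387, 642 and 360 at 12.5% on day 9, against 1221, 3338 and 10309 at 25%. The groups did not overlap but the 25% libraries of day 9 differed widely among themselves. These genes are near-identical copies, so single members are uncertain. Other RNAs without tails moved with them: RMRP, the RNA of the RNase MRP enzyme, fell by 2.73 ± 0.44 and RPPH1, the RNA of RNase P, fell by 2.80 ± 0.61. The 5.8S ribosomal RNA fell by 2.02 ± 0.31. With 5.8S RNA as a covariate the histone median was -0.43 with none passing, and the mitotic median was -0.60 with 19 falling. In that fit 38 of 18799 genes tested fell. The 5.8S RNA has no tail itself and did not overlap between the histidine groups. These values therefore do not tell what part of either fall goes with it.

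Genes of cholesterol synthesis fell in 15 of 22 cases and none rose, with a median of -0.37. Over all genes 12.5% fell and 8.24% rose. HMGCS1, an early enzyme of the pathway, had 1161, 1194 and 1274 at 12.5% on day 6, against 1865 and 1788 at 25%, and 1069, 1099 and 969 at 12.5% on day 9, against 1463, 1391 and 1537 at 25%. All 12.5% libraries were lower, with a log2 difference of -0.53 ± 0.06. The sterol sensor INSIG1 fell by 0.69 ± 0.08 on the log2 scale. Fatty acid desaturases fell as well, SCD by 0.68 ± 0.07 and FADS2 by 0.79 ± 0.08, within a list where 7 of 16 fell and 1 rose.

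Of 28 genes of the amino acid response, which is run by the transcription factor ATF4, 8 fell and 1 rose, beside 12.5% of all genes that fell and 8.24% that rose. ASNS, asparagine synthetase, had 51.8, 86.8 and 74.8 at 12.5% on day 6, against 9.08 and 19.7 at 25%, and 21.5, 44.0 and 52.9 at 12.5% on day 9, against 24.9, 47.3 and 40.6 at 25%. The groups were apart on day 6 (log2 difference 2.29, limma adjusted p = 0.0040) and overlapped on day 9 (0.02), and over both days it did not pass (adjusted p = 0.0919 in limma). DDIT3 (0.23), TRIB3 (0.07), SLC7A11 (0.09) and HARS1, the enzyme that charges histidine tRNA (-0.17), did not pass. CHAC1 fell by 0.39 ± 0.08 and GPT2 by 1.07 ± 0.18. Among tRNA synthetases WARS1 rose by 0.57 ± 0.08 and SARS1 fell by 0.41 ± 0.08, and the transporter SLC43A1 fell by 0.51 ± 0.10 while SLC7A6 rose by 0.55 ± 0.09.

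Heat shock chaperones rose in 12 of 24 cases and fell in 2, beside 8.24% of all genes that rose, with a median of 0.33. HSPH1, a co-chaperone of HSP70, had 3417, 3116 and 2956 at 12.5% on day 6, against 1630 and 1475 at 25%, and 3998, 3751 and 3516 at 12.5% on day 9, against 2758, 2173 and 2201 at 25%. It was higher in every 12.5% library, by 0.83 ± 0.09. HSP90AA1 rose by 0.69 ± 0.09 and HSP90AB1 by 0.63 ± 0.07. Ribosome biogenesis genes rose in 19 of 40 cases and fell in 2, with a median of 0.23. Taken by day 17 rose on day 6 and 1 on day 9, beside 6.73% and 2.13% of all genes that rose. The day 9 count is close to that share. Both histidine levels lay below 100% histidine of the same day by the list's median log2 level, 25% further than 12.5%. On day 6 it was -0.45 at 25% and -0.09 at 12.5%, and on day 9 -0.29 and -0.14, given without a test. POLR1A, the catalytic subunit of RNA polymerase I, rose by 0.56 ± 0.09 and PPAN by 0.59 ± 0.11. Without either 25% library of day 6 the count of biogenesis genes that rose was 12.

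Nuclear genes of the respiratory chain fell in 38 of 54 cases and none rose, with a median of -0.41. Of all genes 12.5% fell over both days, 10.6% on day 6 and 4.2% on day 9. COX8A, a cytochrome oxidase subunit, had 837, 1050 and 1494 at 12.5% on day 6, against 2760 and 2534 at 25%, and 1989, 1493 and 1741 at 12.5% on day 9, against 2776, 2795 and 2922 at 25%. It was lower in every 12.5% library, with a log2 difference of -0.96 ± 0.14. Taken by day 37 fell on day 6 and 2 on day 9, and without replicate 3 or replicate 2 of the 25% libraries of day 6 the count was 20 or 22. On day 9 the share of this list that fell was no larger than that of all genes. Many of these transcripts are short, and with the length trend removed 30 fell, beside 1983 of all 17601 genes in that fit. None of 13 mitochondrially encoded genes passed over both days. Taken by day 2 fell on day 6, with a median of -0.23, and 3 rose on day 9, with a median of 0.42. The difference between days passed for none of them.

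Of 22 T-lineage transcription factors 5 fell and 2 rose, and of 36 thymocyte receptor and surface genes 12 fell and 2 rose, beside 12.5% of all genes that fell and 8.24% that rose. TLX3, the homeobox oncogene of this line, fell by 0.47 ± 0.09, and DNTT, the terminal transferase of immature thymocytes, by 1.09 ± 0.16. TCF7 rose by 0.52 ± 0.09 and TRDC, the T-cell receptor delta constant segment, had 812 to 1239 at 12.5% and 462 to 498 at 25%, with no overlap and a log2 difference of 0.98 ± 0.10. Of 18 NOTCH receptors and leukaemia targets 5 fell and 2 rose. CD300A, an inhibitory receptor, had 1436, 1222 and 1203 at 12.5% on day 6, against 458 and 354 at 25%, and 1535, 1312 and 1453 at 12.5% on day 9, against 809, 673 and 509 at 25%. It was higher in all 12.5% libraries, by 1.37 ± 0.13, while CR2 fell by 0.89 ± 0.09 and HES1 (-0.14) did not pass. MYC rose by 0.29 ± 0.06 and its antagonist MXD1 by 0.65 ± 0.07, and MXD3 fell by 0.81 ± 0.10. Of 6 GIMAP GTPases of lymphocytes 5 fell, GIMAP7 by 0.76 ± 0.07.

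Of 19 NF-kB factors and feedback targets 7 fell and 2 rose, beside 12.5% of all genes that fell and 8.24% that rose. RELB, a subunit of the factor, had 189, 183 and 198 at 12.5% on day 6, against 531 and 445 at 25%, and 197, 156 and 171 at 12.5% on day 9, against 457, 397 and 360 at 25%. It was lower in every 12.5% library, with a log2 difference of -1.27 ± 0.10, and NFKB1 fell by 0.75 ± 0.08. The cytokine TNF had 702, 602 and 606 at 12.5% on day 6, against 239 and 273 at 25%, and 419, 350 and 448 at 12.5% on day 9, against 200, 179 and 143 at 25%. It rose by 1.26 ± 0.11, with the groups apart on both days, and IER3 rose by 1.22 ± 0.12 and the immediate-early factor EGR1 by 1.02 ± 0.13.

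Among the largest rises was OSM, the cytokine oncostatin M, with 1327, 1264 and 1308 at 12.5% on day 6, against 336 and 298 at 25%, and 1109, 1039 and 1076 at 12.5% on day 9, against 501, 354 and 321 at 25%. Its groups were far apart, and the log2 difference was 1.73 ± 0.12 (limma adjusted p = 2.2e-06). PLAU, urokinase, rose by 1.90 ± 0.32, the receptor EPHA1 by 1.82 ± 0.33 and the lipid phosphatase PLPP3 by 1.45 ± 0.16, all at lower counts. Among stress and quiescence genes GADD45A fell by 0.99 ± 0.07 and BTG2 by 0.55 ± 0.06, ARRDC3 rose by 0.97 ± 0.08, and TXNIP (0.21, limma adjusted p = 0.0502) did not pass. Outside the histones and small RNAs, the cell surface proteins GPC3 (-2.24 ± 0.33) and ADGRG1 (-2.24 ± 0.40) had the largest falls that the rule for named genes took. The step between these histidine levels differed between days for 5 genes by the limma test of the difference itself, 0.0266% of genes tested, with 2121 at an unadjusted p under 0.05.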

How the data were processed

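The authors deposited 1 table of signal values named as DESeq2-normalized counts, that is, counts per gene divided by size factors. The submitters' processing notes list kallisto 0.50.1, DESeq2 1.44.0, FastQC 0.11.9 and the build GRCh38, but the annotation release and strand setting were not found in the labels. At the best step per library, 60.8% to 76.0% of low values (under 20) came within 0.05 of whole multiples, so reads were not recovered and no count test was run. Such scaling hides changes in RNA per cell, and pseudoalignment divides reads among near-identical copies.

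Genes with at least 10 in at least 2 of the 25 libraries were kept, 18799 of 31919. On log2 values with a pseudocount of 1, limma 3.58.1 (R 4.3.3, variance trended on the mean) was run over the 11 libraries with day and histidine as terms (8 residual degrees of freedom). Values by day and their difference came from a fit of 4 groups (7 degrees of freedom). Tests were two-sided, Benjamini-Hochberg adjusted over all genes. In simulated data for the comparison over both days (18797 genes) a log2 change of 0.5 was recovered in 65.7% of cases. A change of 1 was recovered in 95.5%, and 3.89% of calls were false. These rates describe the simulated data only. Whether they hold for the calls made on the deposited values was not tested.

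Named genes were the 10 largest rises and falls with a mean of at least 50 and no overlap on either day, up to 4 called members of each of 54 lists by smallest adjusted p, 3 each way per day and for the day difference, and a fixed set of cell cycle, lipid, amino acid response and leukaemia genes. Members and lists were chosen with earlier results of these data known. Lengths and places came from GENCODE 29 on GRCh38, promoter windows from RefSeq on GRCh38.p14, both matched by symbol. A length trend was added as an alternative after seeing the data. Figures used matplotlib 3.10.9 in Python 3.11.15. Some genes of the lists are not reported here.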

Additional observations from a re-analysis of the deposited data

Results flagged for a closer look

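The log2 difference between 12.5% and 25% histidine differed between day 9 and day 6 for 5 genes, each more positive on day 9 by the limma test of that difference. E2F1, a transcription factor of S-phase entry, had 2443, 2915 and 2862 at 12.5% on day 6, against 5656 and 5911 at 25%, and 3871, 3891 and 3982 at 12.5% on day 9, against 4530, 4836 and 4479 at 25%. It was lower at 12.5% in every library of both days, by a log2 difference that was 0.85 less negative on day 9 (limma adjusted p = 0.034). SLC2A4RG averaged 1046 ± 144 at 12.5% and 2010 ± 62.8 at 25% on day 6 (SD, n = 3 and 2), and 1770 ± 135 at 12.5% and 1571 ± 16.4 at 25% on day 9 (SD, n = 3 each), a difference between days of 1.12. It was named after its values were seen.

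EPB41L4A-AS1, a snoRNA host, had 212, 331 and 225 at 12.5% on day 6, against 694 and 586 at 25%, and 582, 547 and 605 at 12.5% on day 9, against 504, 407 and 307 at 25%, a difference between days of 1.88. RN7SL1 and RN7SL2, near-identical RNAs of the signal recognition particle without poly(A) tails, differed between days by 3.29 and 3.26, and reads could be split between them. RN7SL1 had 1175 to 1500 at 12.5% and 9598 to 11452 at 25% on day 6, and 4244 to 7783 at 12.5% and 3156 to 7907 at 25% on day 9.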

How the results depend on the processing

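These checks covered a selection of the named genes and not all of them. Some with calls near the threshold were left out, such as RGPD5 (limma adjusted p = 0.047) and HCG18 (limma adjusted p = 0.043). No call of a gene checked reversed under the alternatives run. Of 106 genes checked that were called over both days, all kept their call when each library was left out in turn. They also kept it in the other alternatives, except that quantile normalization lost CCND3 and the 5.8S covariate lost 87. Among the genes checked that did not pass over both days, 4 changed sign in an alternative without passing there. These were RN7SL1 (0.79) and RN7SL2 (0.85) with the 5.8S covariate, TRIB3 (-0.015) without the keratin-high libraries and HES1 (0.038) with the length trend removed. The 106 were named for small adjusted p or large change, so this does not describe calls in general. The 5.8S RNA separates the histidine groups, and the standard error of PLK1 was 0.24 with that covariate against 0.11.

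Over both days 3891 genes passed, 2540 to 4006 without a single library (2540 without 25% day 6 replicate 2), and 48 with the 5.8S covariate. On day 6 the range was 1036 to 4141 (1923 and 2090 without 12.5% replicates 1 and 2, 1036 and 1272 without 25% replicates 2 and 3, where the 1 library left at 25% borrows the spread of the others), with 1954 without the mean trend, 5480 with library weights, 1731 with the replicate block within day and 3 with 5.8S. On day 9 it was 555 to 1508 (722, 752 and 555 without 12.5% replicates 1 to 3, and 791, 589 and 575 without 25% replicates 1 to 3), with 462 without the mean trend, 76 with 5.8S and 160 without the keratin-high libraries. For the day difference it was 0 to 157 (157 without 12.5% day 6 replicate 3, and 15 and 0 without 12.5% day 9 replicates 2 and 3, and 10 and 2 without 25% day 6 replicates 2 and 3, and 3 and 2 without 25% day 9 replicates 1 and 3), with 8 after quantile normalization, 2 without the mean trend, 198 with library weights, 21 with all 25 libraries, 2 with either replicate block, 2 with 5.8S, 3 without the keratin-high libraries and 18 with the length trend removed. Mitotic falls numbered 112 to 118 without a library, 108 without the keratin-high libraries and 19 with 5.8S. Falls ranged 14 to 20 for MCM and licensing, 15 to 22 for the fork (15 without either 25% library of day 6), 30 to 40 for histones, 20 to 43 for the respiratory chain and 13 to 17 for cholesterol synthesis, and rises 12 to 12 for chaperones and 12 to 20 for ribosome biogenesis. With 5.8S each of these was 0. Respiratory chain falls were 19 without the mean trend and 23 without the keratin-high libraries, where 1635 and 1663 of all 18799 genes fell. The cause of these moves was not tested.

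Whether replicate numbers pair the libraries was not settled. Correlations of deviations from group means were -0.02 and -0.03 for same numbers on day 6. There the 2 libraries at 25% mirror each other by construction, so that day cannot show pairing. On day 9 they were 0.07, 0.003 and 0.06 for same numbers and -0.07 to 0.02 for different ones. With the block 2791 genes passed within day and 3290 across days. Depth is unknown, and with 2 libraries at 25% on day 6 that day's values rest on few samples.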
